A study of Homo sapiens with 4 samples.

Results

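Heat shock chaperones were followed through 10 genes chosen by symbol: HSPA1A, HSPA1B, HSPA8, HSPH1 and DNAJB1 of the cytosolic HSP70 system, HSP90AA1 and HSP90AB1 of the HSP90 system, the small heat shock protein gene HSPB1, and HSPD1 and HSPE1 of the mitochondrial chaperonin. All 10 symbols were paired with an Ensembl identifier present in both cell lines, out of 60671 listed genes. RNA-seq was done on 22RV1 and PC3, established human prostate carcinoma lines. Cells of each line were transduced with a lentiviral PLKO.1 vector carrying a control shRNA (shCON) or a single shRNA sequence against the DEAD/H box RNA helicase DDX52 (shDDX52), and stable transformants were isolated with puromycin, so all 4 groups carry the vector and passed the same selection. Each of the 4 conditions had 1 library. No difference below therefore has a replicate check, and no test was made.

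Molecular chaperones bind unfolded proteins and keep them from aggregating while they fold. In the cytosol, J-domain proteins such as DNAJB1 hand clients to HSP70, nucleotide exchange factors such as HSPH1 release them, and HSP90 finishes the maturation of kinases and steroid hormone receptors. Stress releases the transcription factor HSF1, which binds repeats of the heat shock element and raises the inducible members, while HSPA8 and HSP90AB1 are made in abundance without stress. In mitochondria, HSPD1 (HSP60) forms the folding chamber and HSPE1 (HSP10) its lid.

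Because HSF1 acts through the heat shock element, the promoters of the 10 genes were read first. In the RefSeq promoter table (GRCh38.p14), the 250 bases before each annotated start were searched for this element, whose units of 3 bases alternate in orientation. A match was a pair of units, GAANNTTC or TTCNNGAA, each of which reads the same on both strands. Such a pair was found for 8 of the 10 genes, against 14.0% of the 27305 genes in the table. Counted by window it was found in 8 of the 16 member windows, against 11.6% of all 35116. The 10 genes were chosen as HSF1 targets, so shares above those of all genes, here and below, were built into the choice. An unbroken run of 3 alternating units, searched on both strands and overlapping the pairs, was found for 4 of the 10 (HSPA8, HSP90AA1, HSP90AB1 and HSPD1), against 0.557% of all genes. The sequences below show 30 bases around each run, read along the gene, with the alternating units and their spacers in capitals. They are printed so that the genes with 2 units can be set beside those with 3 or 4. A match describes the letters of the window and says nothing of binding.
HSPA1A (chr6:31815426-31815455, plus strand, upstream of the gene): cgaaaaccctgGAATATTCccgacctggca
HSPA1B (chr6:31827622-31827651, plus strand, upstream of the gene): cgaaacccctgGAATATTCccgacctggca
HSPA8, distal (chr11:123062346-123062375, minus strand, in an HSPA8 exon): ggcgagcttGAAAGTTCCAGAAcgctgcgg
HSPA8, proximal (chr11:123062171-123062200, minus strand, in an HSPA8 exon): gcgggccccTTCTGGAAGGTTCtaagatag
DNAJB1, distal (chr19:14518456-14518485, minus strand, intron of DNAJB1): cgggcggggcgGAAGGTTCtggagggggct
DNAJB1, proximal (chr19:14518426-14518455, minus strand, intron of DNAJB1): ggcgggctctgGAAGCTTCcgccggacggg
HSP90AA1, distal (chr14:102087112-102087141, minus strand, in an HSP90AA1 exon): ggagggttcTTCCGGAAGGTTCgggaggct
HSP90AA1, proximal (chr14:102087094-102087123, minus strand, in an HSP90AA1 exon, overlapping the stretch above): gttcgggaggcTTCTGGAAaaagcgccgcg
HSP90AB1, distal (chr6:44247769-44247798, plus strand, intron of HSP90AB1): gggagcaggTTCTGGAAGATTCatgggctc
HSP90AB1, proximal (chr6:44247822-44247851, plus strand, intron of HSP90AB1): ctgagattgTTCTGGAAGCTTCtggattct
HSPB1 (chr7:76302480-76302509, plus strand, upstream of the gene): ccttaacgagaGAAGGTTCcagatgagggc
HSPD1 (chr2:197500061-197500090, minus strand, in exons of HSPD1 and HSPE1 transcripts): gcattTTCTGGAAAGTTCTGGAAccgagcg

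HSPD1 carried the longest run, 4 alternating units, 227 bases before the downstream one of its 2 annotated starts. HSPE1 is transcribed away from HSPD1 on the opposite strand, and the same run lies 293 bases before the HSPE1 start, just outside the HSPE1 window, which held no match. HSPA8 held a run of 3 units at 217 and another at 42 bases before its start. HSPH1 had no match in the single window listed for it. HSPA1A and HSPA1B shared their pair of units at nearly the same place, 98 and 97 bases before the start, and both had a TATA box (TATAAA, searched on both strands), which 3563 of the 27305 genes held. Exon and intron calls follow GENCODE 29. The submitters' processing notes name the build hg19, so these positions describe the reference sequence and not the deposited values.

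The deposited values are TPM, which give a transcript's share of all transcripts in its library. They are corrected for transcript length and can be compared between genes of a library. TPM keeps no sequencing depth, so the reads behind a value and its counting error are unknown. In total, the 10 genes held 7270 TPM in the 22RV1 control and 6449 in its knockdown library, and 5347 and 5285 TPM in PC3, or between 0.537% and 0.736% of all TPM in a library. DDX52 itself stood at 24.6% of its control in 22RV1 and at 22.5% in PC3. Of the prostate marker genes reported here, KLK2, KLK3, HOXB13, TMPRSS2 and FOLH1, all were above 4 TPM in both 22RV1 libraries. In PC3, KLK2 and KLK3 were listed at 0 in both libraries and FOLH1 was at 0.26 TPM or less, TMPRSS2 was at 2.94 and 2.44 TPM, and HOXB13 was at 39.9 and 34.1 TPM. Genes annotated as nuclear rRNA took 3.13% of the TPM in PC3 shDDX52 against between 0.0872% and 1.21% in the other 3 libraries. Mitochondrially encoded genes took 9.81% and 12.99% in 22RV1 and 8.10% and 10.3% in PC3, more with knockdown in both lines. A share taken by one class lowers all other values of that library.

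HSPB1 (HSP27), which holds unfolding proteins without using ATP, was the most abundant of the 10 in all 4 libraries. It stood at 2829 TPM in the 22RV1 control and 2974 in its knockdown library, and at 1719 and 1773 TPM in PC3. That placed it between position 44 and position 94 among all genes of a library. HSP90AB1 came next everywhere, with 1544, 1396, 1082 and 1194 TPM in the same order of libraries. HSPA8 followed in all libraries but 22RV1 shDDX52, where HSPE1 stood above it. At the other end, HSPH1 and HSPA1A were the lowest members in 22RV1 and HSPH1 and HSPA1B the lowest in PC3. The abundance of the members thus covered more than 2 orders of magnitude in 22RV1, from 10 TPM for HSPA1A to 2829 TPM for HSPB1. With 1 library a condition, no neighbours in this order can be separated by their spread.

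**Figure D1:**
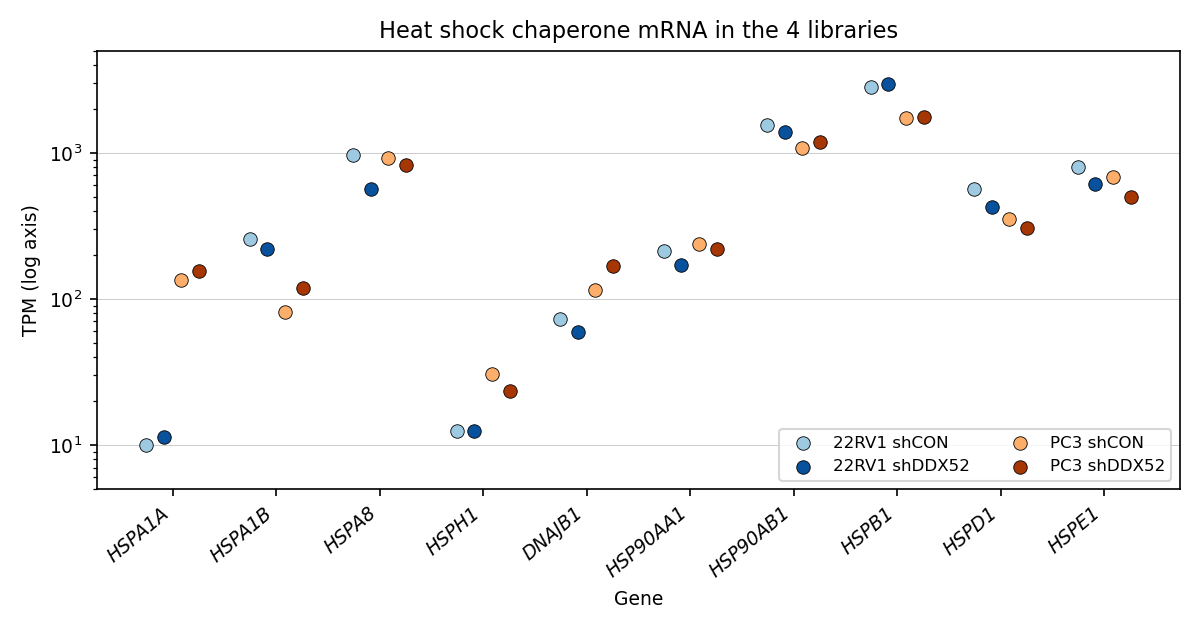
TPM (log axis) of the 10 chaperone genes, with 1 point for each of the 4 libraries. HSPB1 is highest in every library, HSPA1A lies at 10 and 11.35 TPM in 22RV1 against 135 and 154 in PC3, and HSPA8 shows its one low point, 567 TPM, in 22RV1 shDDX52.

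The first comparison asked which chaperone mRNAs differed with DDX52 knockdown in 22RV1 cells. Differences are given as log2 of (shDDX52 TPM + 1) over (shCON TPM + 1), for genes reaching 1 TPM in one library or the other. A gene is counted as lower when shDDX52 was at least 20% below shCON on this scale and as higher when it was at least 25% above, a log2 ratio of 0.32 either way. In 22RV1, 3 of the 10 were lower by this rule, HSPA8, HSPD1 and HSPE1, where 22.6% of all 14438 genes were lower. Among genes of at least 100 TPM, a level chosen after seeing the data because most members reach it, 11.3% were lower. In 22RV1, 7 of the 10 members reached that level, the 3 lower ones among them. In these bulk libraries, fewer cells of a kind and less RNA per cell cannot be told apart. None of the 10 was higher, where 12.7% of all genes and 7.53% of those of at least 100 TPM were. None passed 2-fold, where 2.86% of all genes were lower and 2.24% higher by that much. The median log2 ratio of the 10 was −0.27, against −0.076 for all genes, and 7 of the 10 lay below 0 where 58.8% of all genes did. Lower genes made up 63.9% of all genes counted as lower or higher, and 50% when ratios were centred on the median of all genes. With that centring HSPA8 alone of the 10 was counted as lower.

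In PC3 cells the same comparison gave 2 lower members, HSPE1 and HSPH1, where 22.5% of all 14262 genes were lower. Among genes of at least 100 TPM, a level that HSPH1 did not reach, 20.5% were lower. It gave 2 higher members, HSPA1B and DNAJB1, where 19.7% and 9.84% were higher. Again none passed 2-fold, against 3.44% of all genes lower and 2.86% higher. The median of the 10 was −0.035, almost the same as the −0.036 of all genes, with 5 members below 0 and 5 above. When TPM was recomputed over nuclear protein-coding genes, the median of the members in PC3 turned to 0.094 and no member was counted as lower. All genes moved by a median of 0.12 with that scaling, and lower genes then made up 33.8% of all genes counted as lower or higher, in place of 53.3%.

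**Figure D2:**
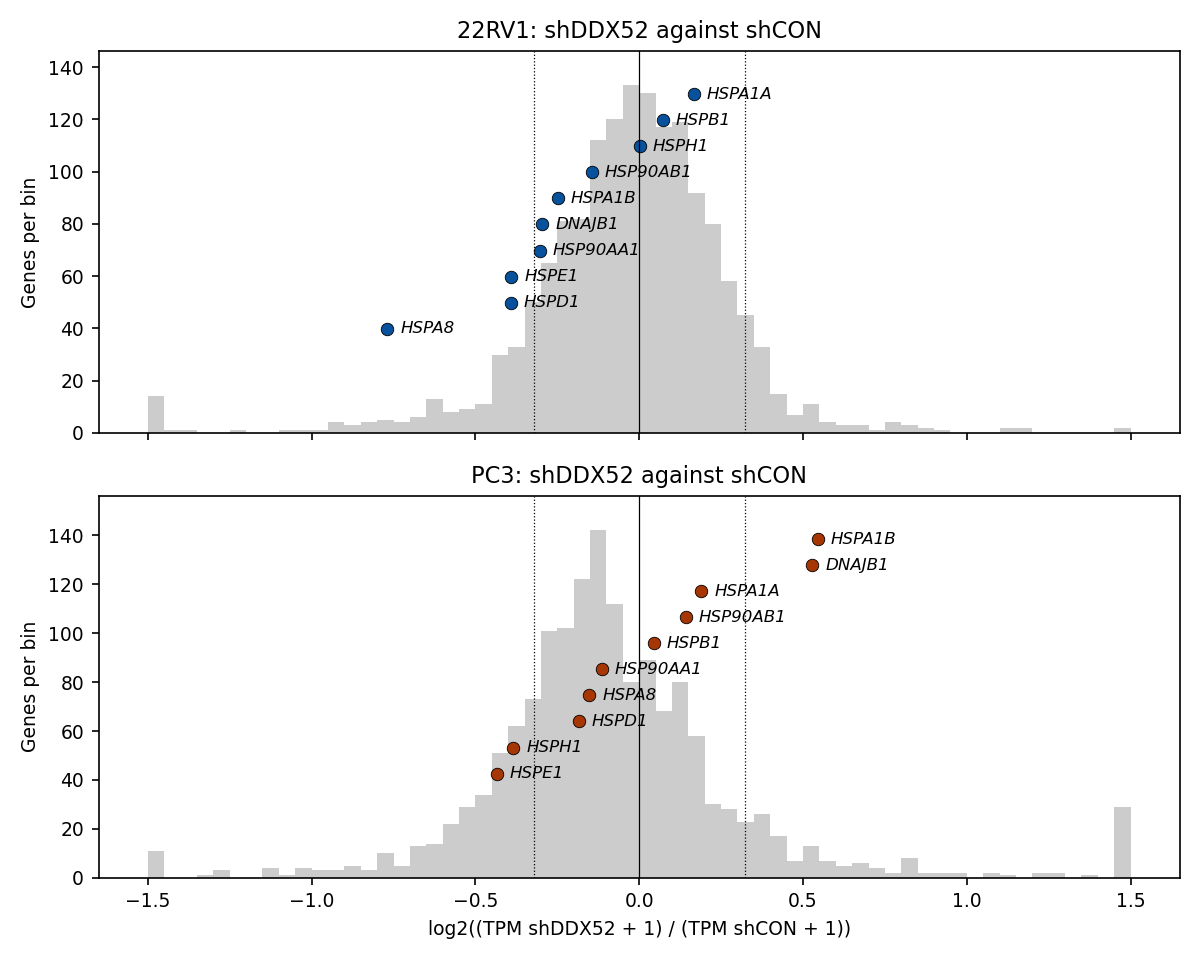
log2((TPM shDDX52 + 1) / (TPM shCON + 1)) of the 10 chaperone genes (points, spaced vertically only for legibility) over the histogram of genes reaching 100 TPM in one library or the other (grey, genes per bin, values beyond 1.5 collected in the end bins), for 22RV1 above and PC3 below. Dotted lines mark log2 ratios of 0.32 below and above 0. HSPA8 at −0.77 is the leftmost member in 22RV1, and HSPA1B at 0.55 and DNAJB1 at 0.53 are the rightmost in PC3.

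HSPA8 (HSC70), the constitutive cytosolic HSP70 that also uncoats clathrin vesicles, had the largest difference of the 10 in either knockdown comparison. It was at 967 TPM in the 22RV1 control and 567 in its knockdown library, and at 916 and 824 TPM in the PC3 libraries. The 22RV1 shDDX52 library thus lay below the other 3, which lay close together. It held 0.587 times its control level, a log2 ratio of −0.77. That ranked 680 from the lowest among all 14438 genes, and 35 among the 1527 genes of at least 100 TPM. In PC3 the level was 0.900 times its control, a log2 ratio of −0.15. The log2 ratio in 22RV1 stayed between −0.77 and −0.69 under the scalings tried. At this level the filters could not change it, and the pseudocount hardly could.

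The inducible HSP70 genes HSPA1A and HSPA1B have no introns and lie 12195 bases apart, start to start, on chromosome 6. Their coding sequences have 1926 bases each and differ at 4 of them, 99.8% identity. To see how far short reads can tell them apart, exact 50-base windows were compared in GENCODE 29 transcripts. Of the coding windows, 1760 of 1877 occurred in the other copy, while 0 of the 244 windows in the 5′ UTR and 0 of the 215 in the 3′ UTR of HSPA1A did. How the deposited values divide shared reads is not given in the sources used here, so each copy is uncertain and their sum is less so. The upstream sequence is nearly shared too. Over the 171 bases before the first annotated exon of HSPA1A, 164 matched the counterpart before HSPA1B, as shown here with the heat shock element in capitals (chr6:31815293-31815463 and chr6:31827489-31827659, plus strand).
HSPA1A: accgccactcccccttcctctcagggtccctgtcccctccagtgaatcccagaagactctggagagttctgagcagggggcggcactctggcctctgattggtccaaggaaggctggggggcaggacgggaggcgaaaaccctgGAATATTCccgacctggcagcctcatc
HSPA1B: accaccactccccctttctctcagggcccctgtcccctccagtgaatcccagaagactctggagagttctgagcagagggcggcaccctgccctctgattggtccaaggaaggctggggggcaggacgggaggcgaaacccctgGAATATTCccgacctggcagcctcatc

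Despite that likeness, the division between the copies was very different in the 2 lines. HSPA1A was listed at 10 TPM in the 22RV1 control and 11.35 in its knockdown library, and at 135 and 154 TPM in PC3. HSPA1B was at 259 and 218 TPM in the 22RV1 libraries and at 81.2 and 119 in the PC3 libraries. HSPA1A made up 3.72% and 4.95% of the pair in 22RV1 and 62.5% and 56.5% in PC3, so the lines did not overlap and each knockdown library lay near the control of its own line. The sum of the pair was far more even, at 269, 229, 216 and 273 TPM in the same order of libraries. With knockdown the sum was 0.852 times its control in 22RV1, a log2 ratio of −0.23, and 1.26 times in PC3, a log2 ratio of 0.34. The part of read assignment in the division was not tested.

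**Figure D3:**
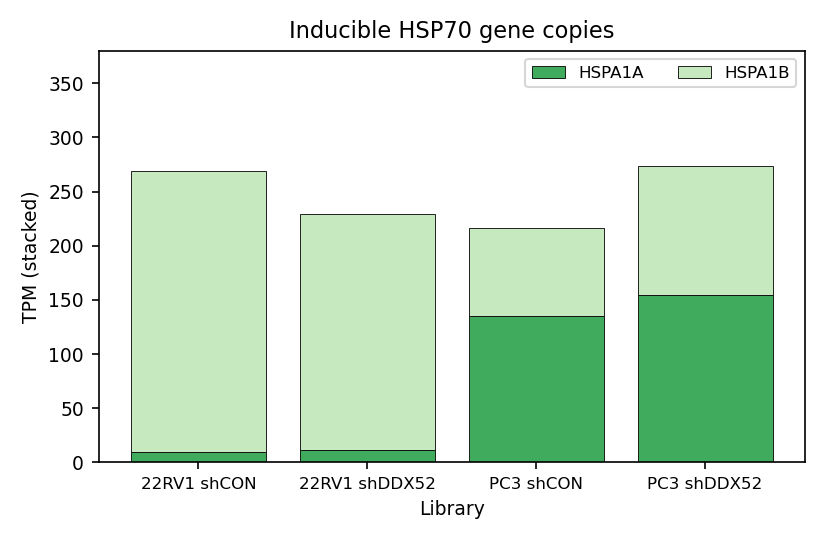
Stacked TPM of HSPA1A (dark) and HSPA1B (light) in each library. The total lies between 216 and 273 TPM in all 4, while HSPA1A makes up 3.72% and 4.95% of it in 22RV1 and 62.5% and 56.5% in PC3.

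DNAJB1 (HSP40), the J-domain partner that stimulates the ATPase of HSP70, differed in opposite directions in the 2 lines. It was at 72.7 TPM in the 22RV1 control and 59.0 in its knockdown library, a log2 ratio of −0.30. PC3 held 116 TPM in the control and 168 in the knockdown library, a log2 ratio of 0.53. Both PC3 libraries lay above both 22RV1 libraries. HSPA1B followed the same directions, at −0.25 in 22RV1 and 0.55 in PC3. Both are inducible members, but HSPA1A, the other inducible HSP70 gene, was 0.17 in 22RV1 and 0.19 in PC3, above 0 in both lines. The division of reads between HSPA1A and HSPA1B is uncertain. Their sum, which is less so, was −0.23 in 22RV1 and 0.34 in PC3, the same directions as DNAJB1. The differences in direction between the lines were not tested, since each line has 1 library a condition.

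HSPH1 (HSP110), which exchanges nucleotide on HSP70, was among the scarcest members. It was at 12.45 TPM in the 22RV1 control and 12.47 in its knockdown library, and at 30.65 and 23.25 TPM in the PC3 libraries, so the 22RV1 libraries were level and PC3 shDDX52 was lower than its control by a log2 ratio of −0.38. PC3 held more HSPH1 than 22RV1 with either shRNA.

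Neither HSP90 gene nor HSPB1 was counted as lower or higher in either line. HSP90AA1, the inducible form, was at 212 TPM in the 22RV1 control and 171 in its knockdown library, and at 239 and 220 TPM in PC3. Its log2 ratios were −0.30 and −0.11, and the PC3 value turned to 0.014 when TPM was recomputed over nuclear protein-coding genes. HSP90AB1, the constitutive form, was −0.15 in 22RV1 and 0.14 in PC3 on the same scale. HSPB1 lay at 0.072 and 0.045, above 0 in both lines.

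Of the mitochondrial pair, both genes were counted as lower in 22RV1 and HSPE1 alone in PC3. HSPD1 was at 562 TPM in the 22RV1 control and 428 in its knockdown library, and at 350 and 308 TPM in PC3. HSPE1 was at 801 and 611 TPM in 22RV1 and at 678 and 501 in PC3. For either gene the knockdown library of a line was the lower one. In 22RV1 the pair differed almost equally, by log2 ratios of −0.393 for HSPD1 and −0.391 for HSPE1. In PC3 they parted, with −0.18 for HSPD1 and −0.43 for HSPE1, where 66.3% of the genes of at least 100 TPM lay below 0. Of the 50-base windows of the HSPE1 transcript, 27.2% also occur in transcripts of other genes, and of those of HSPD1 24.8%. The 26 HSPE1 and 18 HSPD1 pseudogenes listed by symbol held at most 2.19 and 0.75 summed TPM in any library. HSPE1-MOB4, an annotated readthrough transcript that contains HSPE1 sequence, was at 2.15 TPM or less.

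Ratios of TPM between members of the same library do not depend on how that library was scaled. HSPE1 to HSPD1 was 1.424 in 22RV1 shCON and 1.427 in 22RV1 shDDX52, and 1.94 and 1.63 in the PC3 libraries. The lid mRNA thus kept its proportion to the chamber mRNA in 22RV1 and was at 0.840 times its control proportion in PC3. HSP90AA1 to HSP90AB1 was 0.137 and 0.123 in 22RV1 and 0.221 and 0.185 in PC3, so the inducible form was the minor one throughout, had a larger part in PC3, and had a smaller part with knockdown in both lines. The inducible pair HSPA1A plus HSPA1B to HSPA8 was 0.278 and 0.404 in 22RV1 and 0.236 and 0.332 in PC3. This ratio was higher with knockdown in both lines, by 1.45-fold and 1.40-fold, but not in the same way. In 22RV1 the pair itself was lower, at 0.852 times its control, and HSPA8 was lower still, at 0.587 times. In PC3 the pair was higher, at 1.26 times its control, and HSPA8 was at 0.900 times. DNAJB1 to HSPA8 was also higher with knockdown in both lines, by 1.38-fold in 22RV1, where DNAJB1 itself was lower, and 1.61-fold in PC3, where it was higher. HSPH1 to HSPA8 was 1.71-fold higher in 22RV1, where HSPH1 itself was level, and 0.843 times its control in PC3. The last 3 ratios share HSPA8 as their base and are not independent of each other.

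**Figure D4:**
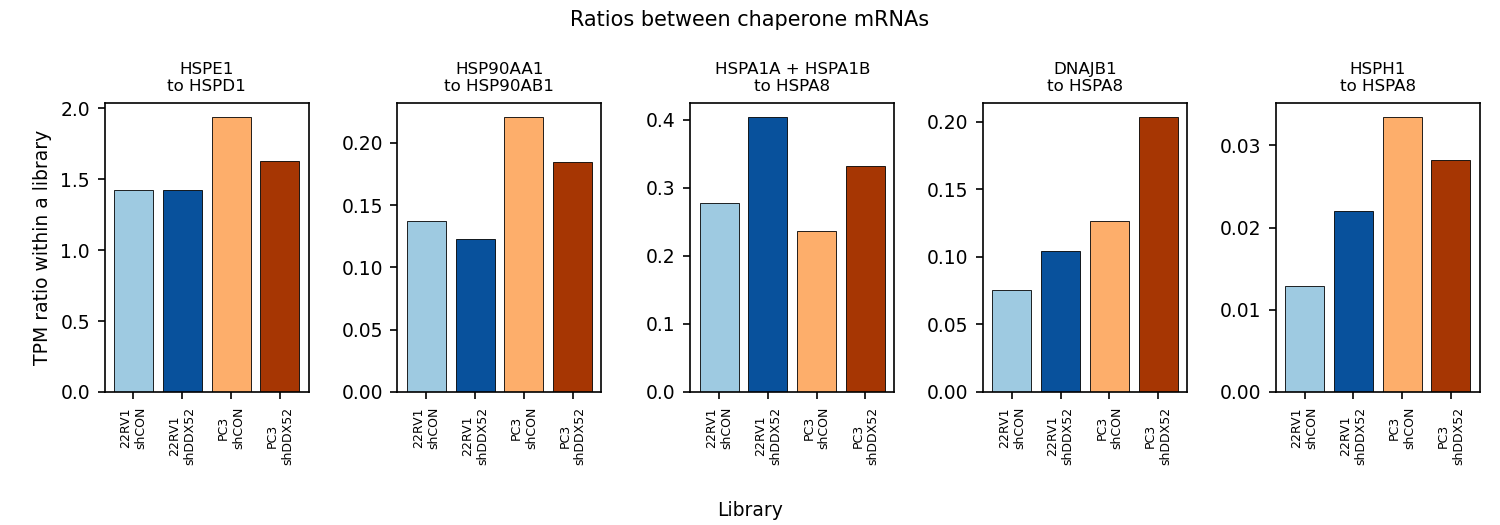
TPM ratios between chaperone genes within each library, 1 bar a library, each panel on its own axis from 0. HSPE1 to HSPD1 is level in 22RV1 (1.424 and 1.427), and HSPA1A plus HSPA1B to HSPA8 and DNAJB1 to HSPA8 are higher with shDDX52 than with shCON in both lines. In 22RV1 the HSPA1A plus HSPA1B sum and DNAJB1 were themselves lower with shDDX52, and HSPA8 was lower still.

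Between the control libraries, PC3 against 22RV1, 4 members were at least 20% lower in PC3 (HSPA1B, HSP90AB1, HSPB1 and HSPD1), where 40.9% of all 15727 genes were. In the other direction 3 were higher (HSPA1A, HSPH1 and DNAJB1), where 36.9% were. At 2-fold, 1 was lower (HSPA1B), where 21.3% of genes were, and 2 were higher (HSPA1A and HSPH1), where 19.9% were. HSPA1A was 13.5 times and HSPH1 2.46 times as high in PC3. HSPB1 in PC3 was 0.607 times and HSPD1 0.622 times its 22RV1 level, and HSPA8 was nearly level at 0.947 times. This comparison shares its control libraries with the knockdown comparisons.

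The partners of these chaperones were taken from 8 lists of 75 genes in all, 13 of which stand in 2 lists. Of these genes, 74 were paired with an identifier, HSPB11 being the other one. In 22RV1, 66 of them reached 1 TPM, and 21 were lower by the rule above (31.8%, against 22.6% of all genes) while 0 were higher (against 12.7%). Their median log2 ratio was −0.19. In PC3, 63 reached 1 TPM, 12 were lower (19.0%, against 22.5%) and 10 higher (15.9%, against 19.7%), and the median was −0.10. In 22RV1, 48 of the 66 lay below 0, where 58.8% of all genes did, and in PC3 40 of the 63, where 53.5% did. The counts for single lists below are set against the same shares of all genes, 22.6% lower and 12.7% higher in 22RV1 and 22.5% and 19.7% in PC3. Partner counts here and below use TPM as deposited and were not recomputed with other scalings, on which they may depend. With ratios centred on the median of all genes, 17.0% of all genes were lower and 17.0% higher in 22RV1.

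Among regulators, HSF1 was at 70.4 TPM in the 22RV1 control and 75.65 in its knockdown library, and at 108 and 100 TPM in PC3, with log2 ratios of 0.10 and −0.10. HSF2, another heat shock factor, was at 4.16 and 4.58 TPM in 22RV1 and at 3.03 and 4.11 in PC3, where its log2 ratio was 0.34. HSBP1, a small protein that binds HSF1, was at 58.5 and 30.9 TPM in 22RV1 and at 66.6 and 51.05 in PC3, or −0.90 and −0.38. Of the 4 genes of the factor list that reached 1 TPM, HSBP1 was thus the 1 lower gene in 22RV1, while in PC3 HSBP1 and HSF4 were lower and HSF2 higher. Genes named here to fill such counts, beyond those chosen by rule, were named after their values were seen.

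In the HSP70 system, 7 of the 13 other J-domain genes were lower in 22RV1 and 0 higher, which is 53.8% lower against 22.6% of all genes, with a median log2 ratio of −0.34. In PC3, 4 of 12 were lower (DNAJA1, DNAJC2, DNAJC7 and DNAJC9) and 3 higher (DNAJB5, DNAJB6 and DNAJC5), or 33.3% and 25% against 22.5% and 19.7% of all genes, with a median of −0.26. DNAJA1, a widely expressed cytosolic partner of HSP70, was lower in both lines, at 113 and 87.3 TPM in 22RV1 and 82.8 and 65.45 in PC3. DNAJB6, which keeps aggregation-prone proteins soluble, was the highest in PC3 of the partner genes of at least 10 TPM, at 109 and 181 TPM or 0.73.

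Of the other HSP70 and HSP110 family genes, 3 of 9 were lower in 22RV1 (HSPA6, HSPA9 and HSPA14). In PC3, 1 of 8 was lower (HSPA4) and 2 were higher (HSPA13 and HSPA4L). HSPA4, an HSP110 relative, was the lowest in PC3 of the partner genes of at least 10 TPM, at 50.4 and 23.8 TPM or −1.05, while in 22RV1 it was at 23.9 and 20.9 TPM. HSPA6, an HSP70 gene made almost only under stress, was at 1.06 and 0.61 TPM in 22RV1 and at 1.51 and 1.06 in PC3. Of the nucleotide exchange factors, 0 of 5 were lower or higher in 22RV1, and 1 of 6 was lower in PC3. That gene was BAG1, at 73.1 and 42.8 TPM or −0.76, and in 22RV1 it was among the 3 highest partners at 186 and 226 TPM or 0.28.

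Among HSP90 co-chaperones, 5 of 18 were lower in 22RV1 (FKBP5, CHORDC1, PTGES3, PPID and TTC4) and 0 higher, or 27.8% lower, near the 22.6% of all genes. In PC3, 2 were lower (SUGT1 and PPID) and 3 higher (FKBP4, TOMM34 and UNC45A), or 11.1% and 16.7%, both below the shares of all genes. FKBP5, a co-chaperone of steroid receptors, was at 108 and 45.7 TPM in 22RV1 or −1.22, the lowest there of the partner genes of at least 10 TPM, and at 8.57 and 9.31 TPM in PC3. PTGES3 (p23), which stabilises the closed form of HSP90, was at 248 and 172 TPM in 22RV1. FKBP8, a relative of FKBP5, was among the highest of 22RV1, at 388 and 476 TPM or 0.29. FKBP4 and TOMM34 were among the highest of PC3, at 100.43 and 137 TPM or 0.44 and at 100.01 and 135 TPM or 0.43. SUGT1 was among the lowest there, at 22.4 and 14.4 TPM or −0.60.

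In the mitochondrial matrix, 4 of 10 partner genes were lower (HSPA9, GRPEL2, HSCB and DNAJA3) and 0 higher in 22RV1, or 40% lower against 22.6% of all genes. In PC3, 2 were lower (HSCB and DNLZ) and 0 higher, or 20% lower against 22.5%, and the medians were −0.23 and −0.091. HSPA9 (mortalin), the matrix HSP70 that works ahead of HSPD1, was at 227 and 149 TPM in 22RV1, −0.60, and at 99.6 and 108 TPM in PC3, 0.11. TRAP1, the matrix HSP90, was the highest in 22RV1 of the partner genes of at least 10 TPM, at 438 and 537 TPM or 0.29, and was −0.10 in PC3. With TPM as deposited, the matrix HSP70 and HSP90 mRNAs lay on opposite sides of 0 in both lines. In PC3 both values were smaller than the median shift of 0.12 of all genes with TPM over nuclear protein-coding genes. Their sides of 0 in PC3 may thus depend on the scaling. Of the other heat-inducible HSF1 targets, 4 of 16 were lower in 22RV1 (CHORDC1, ZFAND2A, DNAJA1 and HSPA6) and 0 higher, or 25% lower, near the 22.6% of all genes. In PC3, 1 was lower (DNAJA1) and 3 were higher (FKBP4, HSPA4L and CRYAB), and the medians were −0.12 and −0.011.

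Of the other small heat shock protein genes, 3 reached 1 TPM in 22RV1, where HSPB9 was lower at 2.2 and 0.2 TPM. In PC3 CRYAB, the 1 gene that reached it, was higher at 0.92 and 1.44 TPM. HSPB6, also singled out after its values were seen, was at 578 and 526 TPM in 22RV1 but at 0.15 TPM in PC3 shCON and listed at 0 in PC3 shDDX52.

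**Figure D5:**
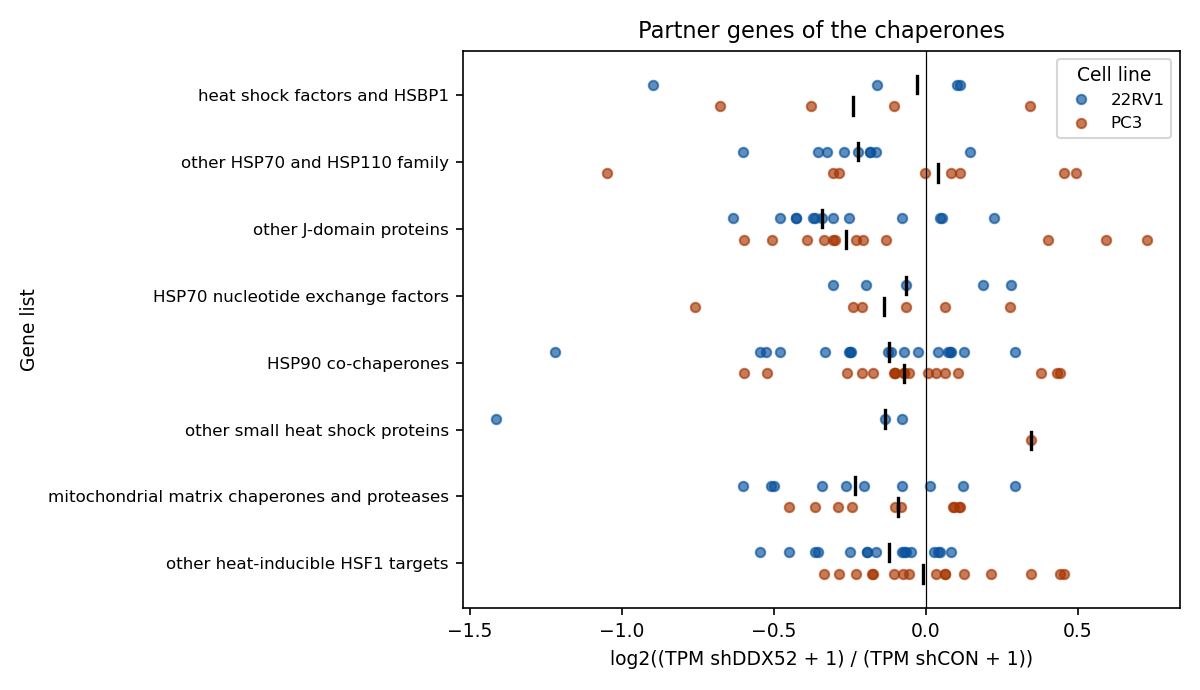
log2((TPM shDDX52 + 1) / (TPM shCON + 1)) of partner genes reaching 1 TPM in one library or the other, by list, for 22RV1 (blue) and PC3 (brown), with black ticks at the list medians. In 22RV1 the J-domain list has its median at −0.34, and no partner gene lies 0.32 or more above 0.

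Over the 4 libraries, the genes whose pattern lay nearest to a member were found among protein-coding genes with a mean of at least 10 TPM, by the root mean square difference of centred log2(TPM + 1) values. Nearest to DNAJB1 were YES1, DLG5 and CLDND1, with differences between 0.041 and 0.056. Nearest to HSP90AB1 were NPLOC4, TRIM27 and ADSL, between 0.011 and 0.015, and nearest to HSPD1 were SEC24D, NT5C3A and BAIAP2L1, between 0.024 and 0.030. No other member was that close to any of the 3. Among 6852 genes, HSP90AB1 ranked 625 and HSPE1 654 by nearness to HSPD1, both at 0.18, and the closest member to DNAJB1 was HSPH1 at rank 835 and 0.34. With 4 points a gene, such nearness describes these libraries only.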

How the data were processed

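RNA was sequenced by the authors' provider and mapped on its online platform. The submitters' processing notes name CASAVA, HISAT2 and the build hg19. The quantification program, annotation and handling of shared reads are not given in the sources used here. The authors deposited TPM per Ensembl gene, 1 library a condition, with 4 columns matched to the samples by cell line and shRNA.

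Symbols came from a gene name table, and gene types and positions from GENCODE 29. Log2 ratios used a pseudocount of 1 and genes of at least 1 TPM in either library, which understates differences of low genes. No count test fits TPM, and none was made. The rules for lower and higher genes were run on simulated data, where 199 of 200 planted changes were recovered for each line. The simulated noise was set in advance, so this checks the computation and says nothing of the spread between replicates.

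Named by rule were all members, DDX52, HSF1, HSF2, the 3 lowest and 3 highest partner genes of at least 10 TPM in each line, and the 3 nearest genes of 3 members (DNAJB1, HSP90AB1 and HSPD1). Prostate genes were read as markers of the lines. Some markers are not reported here. The members and lists were chosen with earlier results of these data known. Protein sequences were not used here. Alternatives were a pseudocount of 0.1, 3 other scalings, other filters on low values, and HSPA1A and HSPA1B summed. The background of genes of at least 100 TPM was chosen after seeing the data. Computation used Python 3.11.15 with pandas 2.3.3 and numpy 2.4.6, and matplotlib 3.10.9 for plots.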

Additional observations from a re-analysis of the deposited data

Results flagged for a closer look

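In 3 genes the knockdown differences pointed in opposite directions in the 2 cell lines and lay at least 0.32 apart on the log2 scale. None of these differences was tested, since each line had 1 library a condition. The log2 ratio of DNAJB1 in PC3 minus that in 22RV1 was 0.82, from −0.30 and 0.53. For HSPA1B it was 0.79, from −0.25 and 0.55, and this gene shares most of its coding windows with HSPA1A. For HSPH1 it was −0.39, from 0.0021 in 22RV1, where the libraries were level, and −0.38 in PC3.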

How the results depend on the processing

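Recomputing the 71 results under the alternatives that apply to each gave 347 values, of which 302 moved little, 43 moved and 2 turned direction. Every member reached 10 TPM in all libraries, so the filters could not change any member value. Those values are among the 302, which is therefore no measure of stability. The cause of the moves was not tested. The median log2 ratio of the members in PC3, −0.035, turned to 0.094 with TPM over nuclear protein-coding genes and to 0.0012 when centred on all genes. The former scaling left 0 members counted as lower in PC3, in place of 2. The centring left 1 in 22RV1, in place of 3, since HSPD1 and HSPE1 then lay at −0.317 and −0.315, just inside the limit of 0.32. The 22RV1 median stayed between −0.30 and −0.20. Among single members, 1 changed sign, HSP90AA1 in PC3 (0.014). The shares of all genes moved most: over the planned settings, the share at least 2-fold lower lay between 0.681% and 5.44% in 22RV1 and between 0.808% and 5.94% in PC3, and the share at least 2-fold higher between 0.532% and 4.01% and between 0.672% and 5.14%, lowest with no filter and highest with a pseudocount of 0.1. Lower genes made up 63.9% of all lower and higher genes in 22RV1 and 50% when centred, and 53.3% in PC3 but 33.8% over nuclear protein-coding genes. No paired analysis was possible because there is only 1 library for each condition, and none could be left out. The depth behind TPM is unknown, so the precision of the scarcest members, HSPA1A and HSPH1 in 22RV1 and HSPH1 and HSPA1B in PC3, cannot be given.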
